A study of Homo sapiens with 8 samples.

Results

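The SLC44 family of choline transporter-like genes was described in Alexander1 cells, and its 5 members, SLC44A1 to SLC44A5, were found by symbol among the 58206 genes of the count table. The family was chosen by the values of SLC44A5, which had differed between the 2 labels in these same libraries, so its difference is given here as a description without a test. The other 4 members were included by family name alone and not for their values. Alexander1 is an established epithelial line from a human hepatocellular carcinoma. Of its 8 mRNA libraries, 4 carry the genotype label wt (Axin1 -), in which, according to the series description, Axin1 lacks its GSK3-binding part and Wnt signalling is always on. The other 4 carry the label Axin1 + (Addgene plasmid #24928), described as a stable derivative with full-length Axin1, made by VSVG retrovirus and hygromycin B selection of clones. How many clones were used is not stated, and because the treatment text stands on every sample, it is not clear whether the wt cells received a control vector. All cells were grown in DMEM with 10% fetal bovine serum and used at 70 to 80% confluence. Nothing in the labels says that the replicates are separate cultures, so p-values measure the spread between these libraries, which may be technical.

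Choline is a charged nutrient that crosses membranes only through carriers. Cells build it into phosphatidylcholine, the main membrane phospholipid, and hepatocytes also oxidise it to betaine, a methyl donor. SLC44A1 (also called CTL1) is the widely expressed member and carries choline and ethanolamine at the plasma membrane and in mitochondria. SLC44A2 (CTL2) is a related choline carrier known from the inner ear, blood cells and platelets, SLC44A4 (CTL4) takes up thiamine pyrophosphate in the colon, and SLC44A3 (CTL3) and SLC44A5 (CTL5) are the least studied.

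Promoter sequence is shown for 3 members that differed in level: SLC44A5, with no count in any library labelled wt; SLC44A4, nearly absent there; and SLC44A1, abundant in all 8 libraries. Only bases outside the annotated transcript are printed, 5′ to 3′ on the gene's strand, from RefSeq on GRCh38.p14. Capitals mark matches to 2 motifs, the TCF/LEF core CTTTGA and the TATA box TATAAA, each on either strand.
SLC44A5, chr1:75611117-75611364, minus strand: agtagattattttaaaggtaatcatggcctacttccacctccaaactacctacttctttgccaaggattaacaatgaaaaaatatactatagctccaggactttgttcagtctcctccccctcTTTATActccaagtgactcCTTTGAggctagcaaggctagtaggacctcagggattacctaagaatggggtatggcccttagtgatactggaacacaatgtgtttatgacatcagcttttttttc
SLC44A4, chr6:31879047-31879247, minus strand: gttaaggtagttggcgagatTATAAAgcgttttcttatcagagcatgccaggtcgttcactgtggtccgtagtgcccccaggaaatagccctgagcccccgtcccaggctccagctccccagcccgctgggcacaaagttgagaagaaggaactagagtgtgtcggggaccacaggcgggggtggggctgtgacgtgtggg
SLC44A1, chr9:105244401-105244621, plus strand: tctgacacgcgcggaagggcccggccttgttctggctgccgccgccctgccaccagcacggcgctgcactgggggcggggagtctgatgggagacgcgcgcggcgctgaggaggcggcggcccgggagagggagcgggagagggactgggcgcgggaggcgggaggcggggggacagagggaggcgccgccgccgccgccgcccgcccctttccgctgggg

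The promoters differed in composition. All 5 members matched the RefSeq table of 35116 windows, each of 300 bases (250 before and 50 after a start site), with a median GC content of 58.7% and a median of 14 CpG dinucleotides. The SLC44A5 window held 1 CpG at 40.7% GC, and 3.96% of all windows held fewer CpG. The SLC44A1 window held 40 CpG at 78.3% GC. Among the members with a pair of windows, SLC44A2 had 25 and 30 CpG, SLC44A3 had 37 and 9, and SLC44A4 had 16 and 6. CTTTGA was found in the SLC44A5 window alone, 108 bases before the start, and occurs in 12.9% of all windows. The TATA box letters lay in reverse 127 bases before the SLC44A5 start, forward 230 bases before the upstream start of SLC44A4 and in reverse in the downstream SLC44A3 window, and are held by 11.5% of all windows. CCAAT (34.6% of windows) occurred in one window each of SLC44A2 and SLC44A4, and neither the AP-1 site TGACTCA (4.95%) nor the E-box CACGTG (7.26%) occurred in any window of the family. None of these matches overlapped another, and a match is a description of letters, not evidence of a bound site.

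The libraries held between 11232951 and 26400782 counts, and the 4 deepest included 3 of those labelled Axin1+. AXIN1, the gene the design set out to restore, stood between 47.4 and 55.3 CPM (a count relative to the TMM-scaled total of its library) in the libraries labelled wt and between 37.7 and 48.2 CPM in those labelled Axin1+ (log2 fold change -0.21, edgeR quasi-likelihood adjusted p = 0.267), so its mRNA gave no check of the labels and every direction below rests on the labels alone. All 14 hepatocyte markers examined averaged at least 1 CPM, as did 4 of the 5 epithelial markers (CDH1, KRT8, KRT18 and KRT19). The remaining epithelial marker EPCAM, all 5 leukocyte markers and the endothelial markers VWF, CDH5 and KDR averaged less. Averages hide spread between libraries. ALB stood at 13.8 CPM in Axin1+ replicate 1 and at 445 to 681 CPM in the other Axin1+ libraries. HNF4A stood at 256 to 384 CPM under the Axin1+ label, and both genes were picked out after their values were seen. Of 6 fibroblast and stellate markers only COL1A1 averaged 1 CPM or more over all 8 libraries, while PDGFRB averaged 1.69 CPM under the wt label and 0.221 CPM under the Axin1+ label, without overlap (log2 fold change -2.87, SE 0.53, edgeR adjusted p = 0.0045). The summed endothelial list was 4.58 to 6.77 CPM in the libraries labelled wt and 34.1 to 58.5 CPM in the others, nearly all from PECAM1, and the part of these markers in the results was not tested. On the first 2 principal components of all tested genes, wt replicate 1 (61.5 on the second, the others -30.3 to 25.0) and Axin1+ replicate 1 (22.2 on the first, the other Axin1+ libraries 48.7 to 56.8) stood apart. Values without both libraries are given for the members, the neighbouring genes, the counts of calls and the named list genes whose call then changes, and with both out 4623 of 14332 genes passed.

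**Figure D1:**
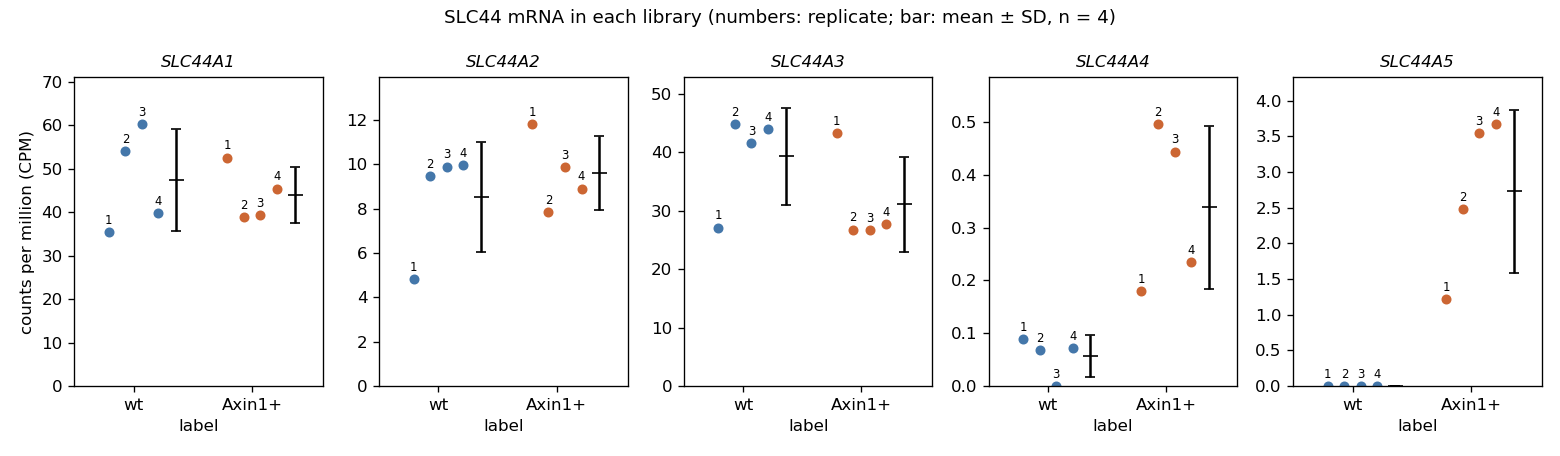
CPM of each SLC44 gene (vertical axes, each from 0) in the 4 libraries of each label (points, numbered by replicate), with the mean ± SD beside them. SLC44A1, SLC44A2 and SLC44A3 overlap between the labels, whereas SLC44A4 and SLC44A5 do not, SLC44A5 having 0 counts in every wt library.

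SLC44A5 mRNA was seen only in the libraries labelled Axin1+. SLC44A5 (ENSG00000137968, chr1:75202131-75611116, minus strand) had 0 counts in each of the 4 libraries labelled wt. It had 34, 30, 72 and 94 counts in Axin1+ replicates 1 to 4, which corresponded to 1.22, 2.48, 3.55 and 3.67 CPM. The labels thus did not overlap, and Axin1+ replicate 1, the deepest library, was the lowest of the 4 in which the gene was seen. The mean was 2.73 CPM ± 1.14 (SD, n = 4). A count of 0 allows up to 3 counts, equal to 0.203 to 0.267 CPM per library labelled wt, and against that limit the gene was at least 11.5-fold higher. The limit covers counting error only. Without Axin1+ replicate 1 and wt replicate 1, the mean was 3.26 CPM. With those 2 libraries left out the gene still had no count in the remaining wt libraries. Bulk values do not tell more cells with the transcript from more transcript per cell, and this holds for every gene below.

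SLC44A4, the carrier of thiamine pyrophosphate, was close to the detection limit throughout. SLC44A4 (ENSG00000204385, chr6:31863192-31879046, minus strand) had 1, 1, 0 and 1 counts in the libraries labelled wt and 5, 6, 9 and 6 counts in those labelled Axin1+. These equal at most 0.0890 CPM in the first group and 0.179, 0.495, 0.444 and 0.234 CPM in the second, and the groups did not overlap. The summed 26 counts against 3, per scaled total, gave a ratio of 5.17 with an exact (Clopper-Pearson) 95% interval of 1.58 to 26.7 for counting error alone. The gene did not pass the expression filter. An exact two-sided permutation test of log2 CPM over the 70 labelings gave p = 0.0286, which is the lowest value this design can reach, and 0.114 after Benjamini-Hochberg adjustment over the 4 members so tested. Without the filter, edgeR's adjusted p over all genes with a count was 0.0910. With the other 3 members at 0.229 or above, 0.114 was the lowest adjusted permutation value possible, so its missing the threshold says nothing of the separation. Of the genes with a count that failed the filter, 4.4% had labels that did not overlap. Without wt replicate 1 and Axin1+ replicate 1, the mean under the Axin1+ label was 0.395 CPM.

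SLC44A1, the general choline carrier, did not differ detectably between the labels. SLC44A1 (ENSG00000070214, chr9:105244622-105439171, plus strand) stood at 35.3, 54.0, 60.2 and 39.7 CPM in wt replicates 1 to 4. In Axin1+ replicates 1 to 4 it stood at 52.5, 38.8, 39.3 and 45.4 CPM, inside the wt range. The means were 47.3 CPM ± 11.7 and 44.0 CPM ± 6.43 (SD, n = 4 each), resting on 397 to 1464 counts per library. On the log2 scale Axin1+ minus wt came to -0.10, with an SE of 0.18 and a 95% interval from -0.51 to 0.30 (edgeR adjusted p = 0.729). The interval leaves room for a change of either sign, and without wt replicate 3, the highest library, the value was 0.028.

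SLC44A2 was expressed at a lower level and did not differ detectably either. SLC44A2 (ENSG00000129353, chr19:10602457-10644559, plus strand) had 4.81 CPM in wt replicate 1 and 9.48, 9.89 and 9.95 CPM in wt replicates 2 to 4. In Axin1+ replicates 1 to 4 it had 11.8, 7.84, 9.86 and 8.90 CPM. All but wt replicate 1 thus lay between 7.84 and 11.8 CPM, in a gene with 54 to 329 counts per library. The log2 difference, 0.17 with an SE of 0.24, had a 95% interval from -0.36 to 0.71 (edgeR adjusted p = 0.659). Its sign turned without wt replicate 1 (-0.021) and without both libraries that stood apart (-0.13, edgeR adjusted p = 0.594).

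SLC44A3 showed a crosswise pattern, with a single library of each label at the level of the other label. SLC44A3 (ENSG00000143036, chr1:94820342-94895246, plus strand) had 27.1 CPM in wt replicate 1 and 44.8, 41.5 and 43.9 CPM in wt replicates 2 to 4. In Axin1+ replicate 1 it had 43.2 CPM, and in Axin1+ replicates 2 to 4 it had 26.7, 26.7 and 27.6 CPM. The 2 libraries at odds with their label were those that stood apart on the principal components. Fitted to all 8, SLC44A3 gave a log2 difference of -0.34 with an SE of 0.21 and a 95% interval from -0.80 to 0.12 (edgeR adjusted p = 0.279). It was -0.48 without wt replicate 1 (edgeR adjusted p = 0.0685) and -0.54 without Axin1+ replicate 1 (edgeR adjusted p = 0.0580). Without both it was -0.68 (SE 0.13, edgeR adjusted p = 0.0013), which rests on 3 libraries against 3 after removing the pair of libraries that went the other way, and is not counted as a call. Exact two-sided permutation tests over all 8 libraries gave p = 0.657, 0.686 and 0.229 for SLC44A1, SLC44A2 and SLC44A3 (0.686, 0.686 and 0.457 after adjustment over the 4 members).

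**Figure D2:**
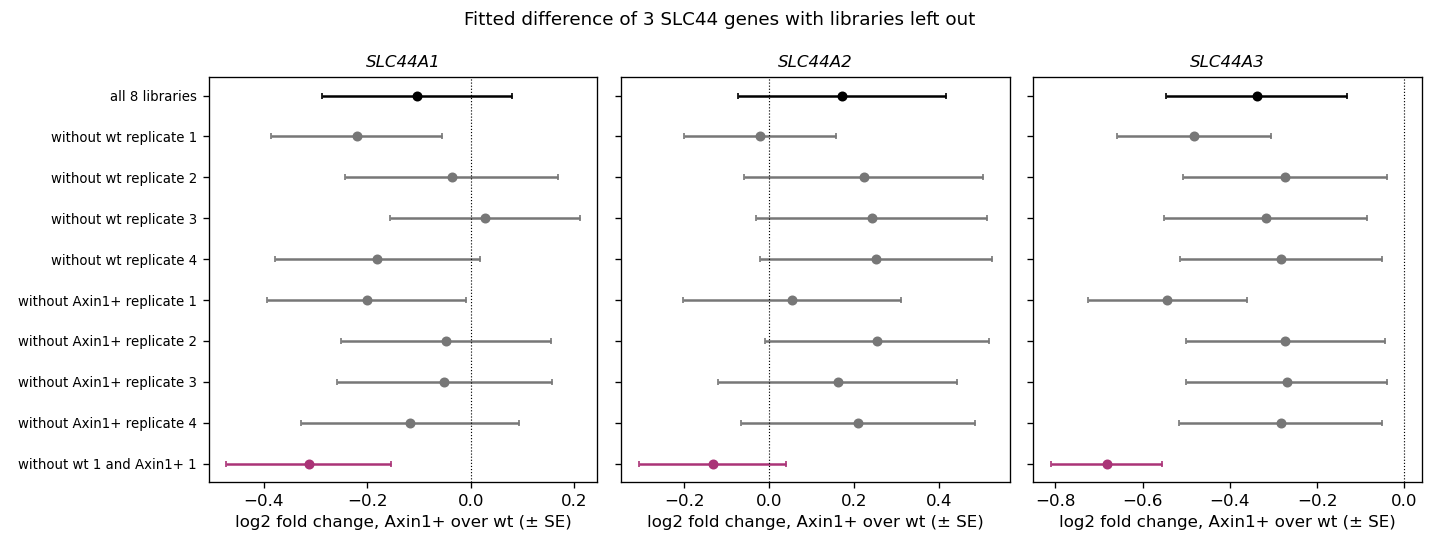
Log2 fold change, Axin1+ over wt, with its SE (horizontal axes) for SLC44A1, SLC44A2 and SLC44A3, fitted to all 8 libraries, with each library left out, and without wt replicate 1 and Axin1+ replicate 1 (bottom). SLC44A1 and SLC44A2 lie on both sides of 0, whereas SLC44A3 stays below 0 and runs from -0.68 to -0.27.

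In all, 4 of the 5 members passed the expression filter, SLC44A5 through its Axin1+ libraries alone. Of the 3 that were tested here and not chosen for their values, 0 passed edgeR's quasi-likelihood test at an adjusted p under 0.05, 0 had an unadjusted p under 0.05, and 0 passed in DESeq2 or limma-voom. Over all 14289 genes tested, 4786 had an unadjusted p under 0.05 in edgeR, and 3504 passed in DESeq2 and 2824 in limma-voom. By edgeR's adjusted p, 19.2% of the 14289 passed (10.4% higher and 8.77% lower with the Axin1+ label). With total counts as the only scaling, the split was 1724 higher to 868 lower instead of 1485 to 1253. The labels did not overlap in 2 of the 5 members, SLC44A4 and SLC44A5, against 23.9% of the genes tested, and nothing is read from that count since it includes the gene for which the family was chosen.

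Levels of different members were compared per kilobase of merged exons. On that scale SLC44A3 was the most abundant member, at 13.7 CPM per kilobase ± 2.89 in the libraries labelled wt and 10.8 ± 2.82 in those labelled Axin1+ (SD, n = 4 each). The order of SLC44A3 and SLC44A1 depends on this scaling: their merged exons measure 2869 and 12172 bases, their longest coding sequences are of nearly equal length, and in CPM alone SLC44A3 stood at 0.608 to 0.828 of SLC44A1 in 7 of 8 libraries and at 1.11 in wt replicate 4. SLC44A1 followed at 3.89 ± 0.964 and 3.62 ± 0.528 CPM per kilobase, and SLC44A2 at 1.64 ± 0.478 and 1.84 ± 0.323 CPM per kilobase. In the libraries labelled Axin1+, SLC44A5 came next at 0.433 ± 0.181 CPM per kilobase and SLC44A4 last at 0.100 ± 0.0459. No neighbours in this order overlapped within a label over its 4 libraries, apart from SLC44A4 and SLC44A5 under the wt label, where both were at or under 3 counts. SLC44A3 made up 67.9 to 74.7% of the family's summed level per kilobase under the wt label and 61.3 to 68.8% under the Axin1+ label. SLC44A5 made up 0.885 to 3.73% under the latter. The summed CPM of the 5 genes was 67.3, 108, 112 and 93.7 in wt replicates 1 to 4 and 109, 76.4, 79.8 and 85.9 in Axin1+ replicates 1 to 4, with overlapping ranges.

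**Figure D3:**
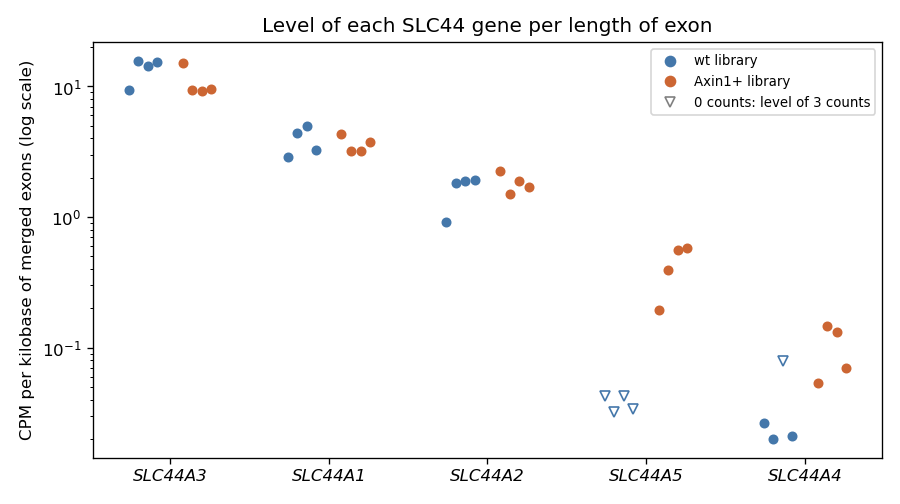
CPM per kilobase of merged exons (log axis) of each SLC44 gene in each library, wt in blue and Axin1+ in orange, with open triangles at the level of 3 counts where a library had 0 counts. Per kilobase SLC44A3 is highest in all 8 libraries, and SLC44A5 in the Axin1+ libraries lies between SLC44A2 and SLC44A4.

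The members' transcripts are unlike enough to be told apart by reads longer than the stretches they share. Between any 2 members, the longest identical run in GENCODE 29 transcripts was 30 bases (SLC44A2 and SLC44A5), and the shortest of these longest runs was 11 bases (SLC44A2 and SLC44A3). The longest coding sequences had 1971, 2133, 1959, 2130 and 2157 bases in SLC44A1 to SLC44A5. No exon of another annotated gene overlapped an exon of any member. SLC44A3-AS1 spans the start of SLC44A3 from the opposite strand without exon overlap, and had 6.05, 6.03, 4.45 and 3.58 CPM in wt replicates 1 to 4 and 2.91, 1.82, 1.38 and 1.21 CPM in Axin1+ replicates 1 to 4. Its log2 fold change was -1.45 (SE 0.33, edgeR adjusted p = 0.0125), with no overlap between the labels. Without both libraries that stood apart it was -1.71 (edgeR adjusted p = 0.00067). Unlike SLC44A3, it was not at the other label's level in either library that stood apart. It was named after its values were seen.

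None of the nearest genes beside SLC44A5 on chromosome 1 was called higher. Of the 3 nearest tested protein-coding genes on each side, 0 were higher and 2 were lower at an adjusted p under 0.05, beside 10.4% higher and 8.77% lower over all genes tested: TYW3 (log2 fold change -0.51, SE 0.13, edgeR adjusted p = 0.0228) and RABGGTB (-0.43, SE 0.13, edgeR adjusted p = 0.0466). The others were FPGT at 0.37, CRYZ at -0.62, ACADM at -0.01 and PIGK at 0.04 on the log2 scale, and did not pass. Without wt replicate 1 and Axin1+ replicate 1, CRYZ passed as well (-0.98, edgeR adjusted p = 0.00031), and 0 were higher. Over all 14332 genes tested in that fit, 2380 passed as higher and 2243 as lower. Around SLC44A3 all 6 neighbours had values below 0, from -1.03 to -0.06, and 0 passed. Without both libraries 5 of these 6 passed as lower, beside 2243 of all 14332 genes tested in that fit. They ran from -1.77 for F3 to -0.51 for ABCD3, with ARHGAP29, CNN3 and TLCD4 between them, all named after their values were seen. SLC44A3 itself had -0.68 in that fit. Around SLC44A1 the 6 lay between -0.11 and 0.37 and 0 passed. Around SLC44A2 they lay between -0.72 and 0.17, where AP1M2 passed as lower, and around SLC44A4 between -0.43 and 1.92, where the complement gene C2 passed as higher. AP1M2 and C2 were named after their values were seen, and leaving out both libraries changed no call around SLC44A1, SLC44A2 or SLC44A4.

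**Figure D4:**
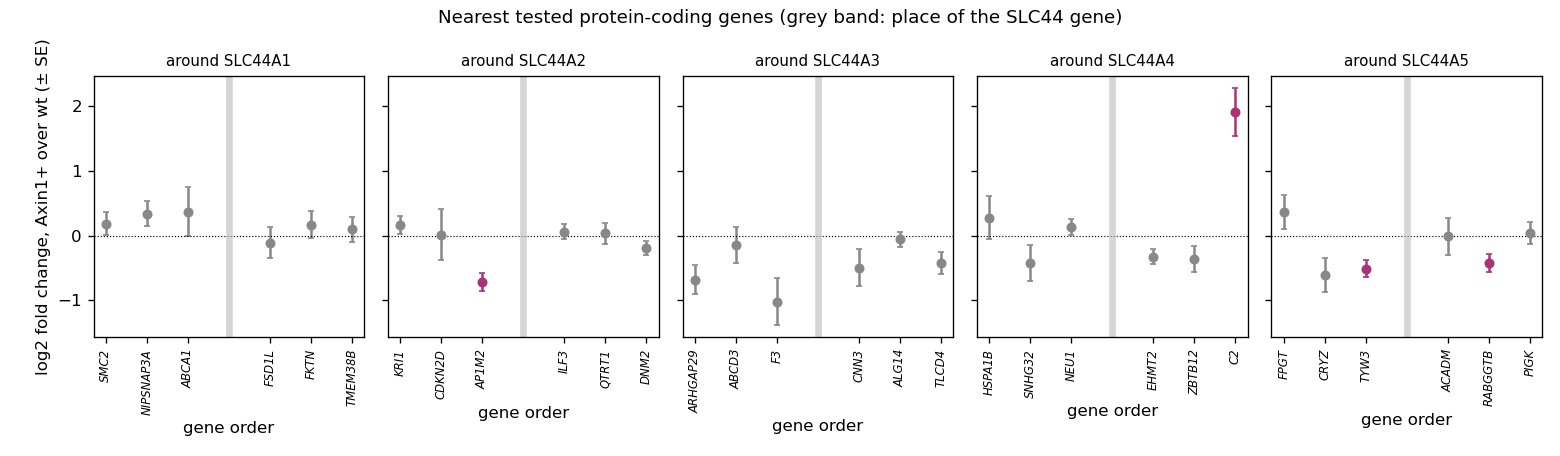
Log2 fold change, Axin1+ over wt, with its SE (vertical axis) for the 3 nearest tested protein-coding genes on each side of every SLC44 gene in chromosome order, purple where the edgeR adjusted p was under 0.05 and grey otherwise. Beside SLC44A5 only decreases passed, whereas C2 beside SLC44A4 stands at 1.92.

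The genes whose profiles were most like each member were sought among the other genes with a mean of at least 1 CPM, by the root mean square (RMS) difference of centred log2 CPM over the 8 libraries. For SLC44A5 these were COL4A5 (RMS difference 0.32), SYCE1 (0.33) and UGT2B11 (0.35), against a median of 2.30 over all genes compared. COL4A5, a basement membrane collagen chain, had no count under the wt label. For SLC44A3 they were CDCA4 (0.07), KIF13B (0.08) and NUP35 (0.09), against a median of 0.45. For SLC44A1 they were BZW1, RRAS2 and NECAP1 (0.07 to 0.08), for SLC44A2 GJC1, RNF144A and TRIM36 (0.09 to 0.11), and for SLC44A4 MAMSTR, NDUFA2 and ATG16L2 (0.19 to 0.23). These genes were picked as the smallest differences, so lying under the median was fixed in advance and is no measure of likeness. For SLC44A5 the profile holds the same values by which the family was chosen. The differences describe likeness within these 8 libraries, which include the label difference itself.

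Genes that handle choline, phospholipids and thiamine besides the SLC44 family were described through a list of 62 genes in 6 groups. Of these, 50 could be tested, and 9 were higher and 6 lower with the Axin1+ label at an adjusted p under 0.05, that is 30.0% of them beside 19.2% of all genes tested. Their median log2 fold change was -0.07, beside 0.00 over all genes tested. The labels did not overlap in 17 of the 50, beside 23.9% of all genes tested. The list count changed with single libraries, as did the count over all genes. Without Axin1+ replicate 3 the list count was 9, beside 1531 of all 14361 genes tested in that fit. Without Axin1+ replicate 4 it was also 9, beside 1394 of 14361. It was 25 (12 higher and 13 lower) without both libraries that stood apart, beside 4623 of all 14332 genes tested in that fit. The list was chosen with earlier results of these data known. Nothing is therefore read from its share, or those of its groups, against the share of all genes.

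Other carriers of choline and related compounds gave 2 of 6 tested genes higher and 0 lower (33.3%, beside 19.2% of all genes tested). SLC22A5, the carnitine carrier, had 11.7 CPM ± 1.62 under the wt label and 23.2 CPM ± 4.02 under the Axin1+ label (SD, n = 4 each), and rose by 0.98 on the log2 scale (SE 0.17, edgeR adjusted p = 0.0040). MFSD2A, which imports lysophosphatidylcholine, rose from 3.93 CPM ± 0.153 to 6.84 CPM ± 0.948 (log2 fold change 0.80, SE 0.19, edgeR adjusted p = 0.0177), which no longer passed in the absence of wt replicate 2 (0.0601), Axin1+ replicate 3 (0.0603) or Axin1+ replicate 4 (0.0578). FLVCR1, a choline carrier of the plasma membrane, was the most abundant of the group at 79.2 CPM ± 15.1 and 71.1 CPM ± 6.43 and did not pass (edgeR adjusted p = 0.497). SLC5A7, the high-affinity choline carrier of cholinergic neurons, had 0 counts in all 8 libraries.

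Enzymes of phosphatidylcholine and phosphatidylethanolamine synthesis gave 2 higher and 2 lower of 16 tested (25.0%, beside 19.2% of all genes tested). CHKA, the choline kinase that starts the cytidine pathway from choline, had 154, 168, 171 and 138 CPM in wt replicates 1 to 4 and 113, 88.4, 100.4 and 84.2 CPM in Axin1+ replicates 1 to 4. It fell by 0.71 on the log2 scale (SE 0.13, edgeR adjusted p = 0.0045), with no overlap. PEMT, which methylates phosphatidylethanolamine to phosphatidylcholine in liver, fell by 0.80 (SE 0.17, edgeR adjusted p = 0.0084), from 47.5 CPM ± 9.61 to 27.4 CPM ± 3.63 (SD, n = 4 each). The lipins LPIN1 and LPIN2, phosphatidic acid phosphatases, rose by 0.86 (SE 0.25) and 0.78 (SE 0.13), at edgeR adjusted p-values of 0.0356 and 0.0022, and 8 of 18 alternatives took LPIN1 back over the threshold. PCYT1A, the enzyme that sets the pace of the cytidine pathway, stood at 98.4 CPM ± 4.74 and 108.6 CPM ± 10.1 and did not pass (edgeR adjusted p = 0.397).

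The branch from choline through betaine gave 0 higher and 2 lower of 5 tested (40.0%, beside 19.2% of all genes tested). BHMT2, a methyltransferase related to the betaine-using enzyme BHMT, had 235, 181, 187 and 152 CPM in wt replicates 1 to 4 and 123, 81.9, 75.3 and 73.7 CPM in Axin1+ replicates 1 to 4, and fell by 1.09 on the log2 scale (SE 0.19, edgeR adjusted p = 0.0035). SARDH, sarcosine dehydrogenase of the mitochondrion, fell by 1.11 (SE 0.20, edgeR adjusted p = 0.0042), from 22.3 CPM ± 3.67 to 10.4 CPM ± 2.40 (SD, n = 4 each). Both kept their labels apart in all 8 libraries. ALDH7A1, which oxidises betaine aldehyde, stood at 150.0 CPM ± 11.6 and 208 CPM ± 41.0 with overlapping labels and did not pass (edgeR adjusted p = 0.0541). It passed as higher in 6 of 18 alternatives, among them without wt replicate 1 (edgeR adjusted p = 0.0361), without Axin1+ replicate 1 (0.0063) and without both (0.66 on the log2 scale, 0.00095).

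Of the acetylcholine genes only the hydrolases were expressed enough to test, and they moved in opposite directions. BCHE, the butyrylcholinesterase that liver secretes, had 0.534, 0.339, 0.178 and 0.286 CPM in wt replicates 1 to 4 and 1.26, 3.8, 4.78 and 4.57 CPM in Axin1+ replicates 1 to 4 (log2 fold change 3.40, SE 0.51, edgeR adjusted p = 0.0014). As with SLC44A5, Axin1+ replicate 1 was the lowest library of its label. ACHE, acetylcholinesterase, averaged 3.36 CPM ± 1.24 and 1.64 CPM ± 0.335 under the wt and Axin1+ labels (SD, n = 4 each) and was lower by edgeR's test (log2 fold change -1.04, SE 0.32, edgeR adjusted p = 0.0432). That call did not hold in 12 of 18 alternatives, among them without both libraries that stood apart (-0.74, edgeR adjusted p = 0.0838). CHAT, which makes acetylcholine, had 0 counts in all 8 libraries.

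Genes of phosphatidylcholine breakdown and remodelling and of sphingomyelin gave 2 higher and 1 lower of 15 tested (20.0%, beside 19.2% of all genes tested). LYPLA2, a lysophospholipase and protein depalmitoylase, averaged 116 CPM in the libraries labelled wt (SD 13, n = 4) and 70.7 CPM in the others (SD 9.86, n = 4), a fall of 0.71 on the log2 scale (SE 0.14, edgeR adjusted p = 0.0056). PNPLA6, a phospholipase that yields glycerophosphocholine, rose by 0.61 (SE 0.17, edgeR adjusted p = 0.0334). SMPD1, the lysosomal sphingomyelinase, rose by 0.62 (SE 0.19, edgeR adjusted p = 0.0427). Of 18 alternatives, 8 and 6 brought these genes back over the threshold. PLD1, which releases choline from phosphatidylcholine, stood at 94.5 CPM ± 20.3 and 76.8 CPM ± 8.32 and did not pass (edgeR adjusted p = 0.233). It passed as lower in 2 of 18 alternatives, without wt replicate 1 (-0.44, edgeR adjusted p = 0.0210) and without both libraries that stood apart (-0.49, 0.0089).

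Thiamine genes were listed because SLC44A4 carries thiamine pyrophosphate. SLC19A3, a thiamine carrier, had 6.23, 3.99, 4.37 and 1.5 CPM in wt replicates 1 to 4 and 20.8, 24.8, 20.5 and 17.6 CPM in Axin1+ replicates 1 to 4, without overlap (log2 fold change 2.39, SE 0.33, edgeR adjusted p = 0.00092). SLC19A1, the reduced folate carrier, had 40.8 CPM ± 11.1 and 35.9 CPM ± 3.99 (SD, n = 4 each) and did not pass (log2 fold change -0.19, edgeR adjusted p = 0.541), except without both libraries that stood apart (-0.41, 0.0427).

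**Figure D5:**
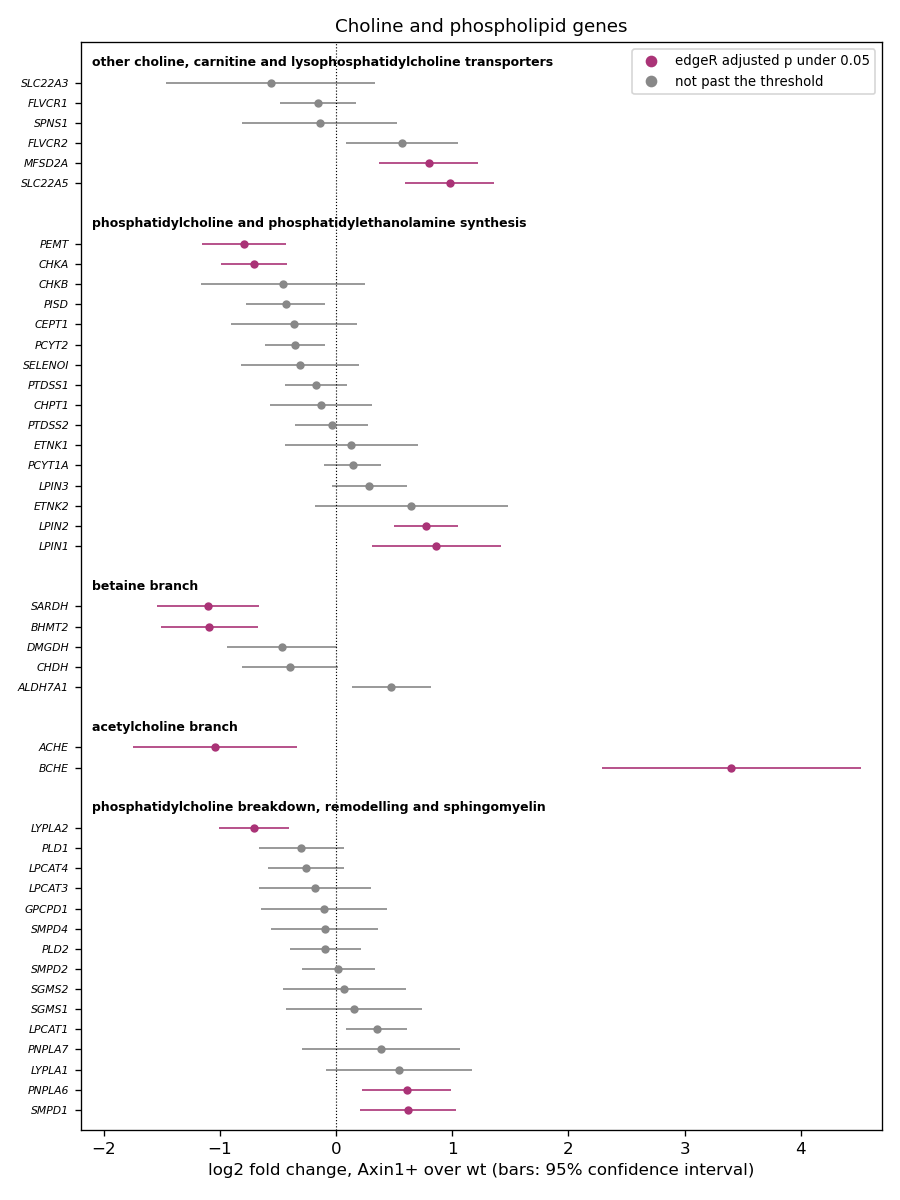
Log2 fold change, Axin1+ over wt, with its 95% confidence interval (horizontal axis) for the tested genes of the groups other than thiamine, purple where the edgeR adjusted p was under 0.05. Purple points lie on both sides of 0, from -1.11 for SARDH to 3.40 for BCHE.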

How the data were processed

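The deposited table held raw counts per gene for 8 mRNA libraries, 4 of each label, and 0 of its columns belonged to no sample. The submitters' processing notes name bcl2fastq, fastp 0.23.1, STAR 2.7.4 and GRCh38, and the counting program, annotation and use of strand are not given in the sources used here. The analysis used edgeR 4.0.16 under R 4.3.3: filterByExpr (minimum count 10, minimum total 15), TMM factors and the quasi-likelihood test without covariates, two-sided, with Benjamini-Hochberg adjustment over all 14289 genes tested (30224 had a count). Log2 CPM used a prior count of 2. Positions and lengths come from GENCODE 29 (57943 identifiers matched) and promoters from RefSeq. The tests were also run on simulated counts in which no library stood apart, so that run does not speak to the libraries that did here.

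Members and lists were chosen with earlier results of these data known. Named genes are the members, AXIN1, in each list group every gene passing and the 2 most abundant (1 where under 3 were tested), the 3 most alike profiles and the SLC44A5 neighbours; SLC5A7 and CHAT were named after their values were seen. Some listed genes are counted in the list but not reported singly here. Not every pair of same-numbered libraries deviated together. Alternatives were other scalings, filters, tests (DESeq2 1.42.0, limma 3.58.1), a replicate block, a threshold of 0.01, transcript length and leaving out libraries.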

Additional observations from a re-analysis of the deposited data

Results flagged for a closer look

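The members, AXIN1 and the list genes that passed or were most abundant in their group were checked within each label, in 53 groups of 4 libraries. Of these groups, 4 held a library whose gap to its nearest neighbour took up most of the group's range. About 1 in 20 would be the share for independent, normally distributed values. The 53 groups share the same libraries and that share was not computed here, so nothing is read from the comparison. Chromosome neighbours, cell type markers and genes of like profile were not checked, and the count does not speak for them. Among these, for example, F3 stood at 20.5 CPM in Axin1+ replicate 1, above 6.77 to 7.18 CPM in the other Axin1+ libraries. SLC44A2 stood at 4.81 CPM in wt replicate 1, below 9.48 to 9.95 CPM in the other wt libraries. SLC44A3 stood at 43.2 CPM in Axin1+ replicate 1, above 26.7 to 27.6 CPM in the other Axin1+ libraries. BHMT2 stood at 123 CPM in the same library, above 73.7 to 81.9 CPM in the others. AXIN1 stood at 37.7 CPM in Axin1+ replicate 4, below 47.6 to 48.2 CPM in the other Axin1+ libraries.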

How the results depend on the processing

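No alternative brought SLC44A1 or SLC44A2 past the threshold. With 1 library left out, the log2 fold change of SLC44A1 ranged from -0.22 to 0.028 (without wt replicate 3), that of SLC44A2 from -0.021 (without wt replicate 1) to 0.25 and that of SLC44A3 from -0.54 to -0.27. Leaving out wt replicate 1 and Axin1+ replicate 1 together, an alternative chosen after seeing the data, gave -0.31, -0.13 and -0.68, of which only SLC44A3 passed. The same step gave 4623 genes over all tested and 25 on the list, against 2738 and 15. With 1 library left out these counts ranged from 1394 to 3523 and from 9 to 19, and at a threshold of 0.01 they were 964 and 9. With the replicate number as a block they were 2033 and 12; deviations of same-numbered libraries correlated at -0.06, 0.01, -0.03 and 0.23, and only wt replicate 4 correlated best with its own number, so the numbers were not taken to pair the libraries. Per kilobase of the longest transcript in place of merged exons, SLC44A1 (Axin1+) stood at 4.19, SLC44A2 at 2.25 (wt) and 2.54 (Axin1+), and SLC44A5 (Axin1+) at 0.619 CPM, and the order of the members was the same. The cause of these shifts was not tested. At 9 counts or fewer per library, depth limits any statement on SLC44A4.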

Other observations

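Of the 12 listed genes with too few counts to test, LPCAT2, a lysophosphatidylcholine acyltransferase, had 1, 1, 2 and 1 counts in wt replicates 1 to 4 and 18, 3, 10 and 12 counts in Axin1+ replicates 1 to 4. BHMT, the betaine-homocysteine methyltransferase, had 3, 2, 1 and 1 counts in wt replicates 1 to 4 and 1, 0, 0 and 0 counts in Axin1+ replicates 1 to 4. The labels were apart in CPM in both, beside 4.4% of the genes with a count that failed the filter, but for BHMT the counts overlapped and only the greater depth of Axin1+ replicate 1 set its single count apart. Both were picked out after their values were seen, and neither was tested.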
